A study of Mus musculus with 24 samples.

Results

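The 42 genes described here belong to the germ line. They were taken as the rows of the counts table whose Ensembl identifiers carry the listed symbols, 42 of 47937 genes in all. By role they fall into 8 genes of the synaptonemal complex and chromosome axis, 9 of meiotic cohesin and recombination, 16 of the piRNA pathway and germ granule, 3 of meiotic entry and germ-cell RNA binding, and 6 other testis genes. Expression was measured by stranded total RNA-seq in mouse embryonic fibroblasts (MEF), with 3 cultures in each of 8 conditions.

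All conditions carried a conditional *Eset1* (*Setdb1*) allele and a Cre recombinase that 4-hydroxytamoxifen (4-OHT) activates. WT is this parent line without 4-OHT, and *E1* is the parent line after 4-OHT, which removes floxed exons of *Eset1*. *E2* is a clone of the parent line with *Eset2* (*Setdb2*) mutated, without 4-OHT, and *E1E2* is that clone after 4-OHT. *E1E2 G9Gl* was derived from it by mutating *G9a* (*Ehmt2*) and *Glp* (*Ehmt1*), and *6KO2* was derived in turn by mutating *Suv39h1* and *Suv39h2*. In the other series, *E1 S1S2* lacks *Eset1*, *Suv39h1* and *Suv39h2*, and *6KO1* was derived from it by mutating *Eset2*, *G9a* and *Glp*. Both *6KO* lines were thus mutated for all 6 SET-domain enzymes that methylate histone H3 at lysine 9 (H3K9), by the reverse order of steps, and both were treated with 4-OHT. The treatment label names 4-OHT for every sample, so treated and untreated cultures were told apart by the sample titles alone, and what the 4-OHT comparisons mean rests on those titles. The other genes were mutated with CRISPR/Cas9 before 4-OHT was added, and each mutant line is 1 clone. Per the methods of the study, a Cre construct with puromycin resistance was put in again after this editing, and puromycin was kept on. Whether WT and *E1* had this construct is not clear there. Genotype, clone, construct and puromycin thus cannot be told apart, and the p-values measure the spread between cultures of a clone. By the titles, every condition compared with WT except *E2* was treated with 4-OHT, and no treated line lacked the conditional allele. Effects of 4-OHT or of active Cre thus cannot be told apart from the loss of *Eset1*.

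Meiosis pairs homologous chromosomes on a protein axis, cuts their DNA and repairs the cuts by recombination, while germ granules and PIWI-interacting RNAs (piRNAs) hold transposons silent in the germ line. Most genes of both systems are off in somatic cells. Their promoters often carry a canonical E-box (CACGTG), which the MGA and MAX proteins of the variant Polycomb complex PRC1.6 bind, and this complex can work together with H3K9 methyltransferases and DNA methylation.

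Between 19541909 and 31489070 counts were assigned to genes per library. Normalized counts are counts divided by the library size times edgeR's TMM factor and scaled to the mean library, and a call needs a log2 fold change of at least 1 in size and a Benjamini-Hochberg adjusted p of at most 0.01 by the quasi-likelihood test of edgeR fitted to the 24 libraries. *Setdb2*, *Ehmt1*, *Ehmt2* and *Suv39h1* were lower where they are targeted, with log2 fold changes against WT from -1.73 to -0.56. Of these, *Setdb2* also changed by -0.61 in *E1 S1S2* and *Suv39h1* by -0.47 in *E1E2 G9Gl*, where they are not targeted. In turn, *Suv39h2* changed by 0.76 in *E1 S1S2* and by -1.47 in *E1E2 G9Gl*, where it is not targeted. Edits that shift the reading frame need not lower the RNA, so these levels do not check the labels. *Setdb1* differed by 0.0072 (SE 0.078, adjusted p = 0.991, edgeR) between *E1E2* and *E2*, so its RNA does not separate them, and their labels were kept. WT replicate 2 stood apart from the other WT libraries, with a chi-square per gene of 57.5 and 68.8 where other pairs had 2.25 to 25.4. The 10 fibroblast markers summed to normalized counts between 180668 and 228962 in WT, between 101835 and 114062 in *6KO1* and between 237316 and 255176 in *E1E2 G9Gl*. Of these, 5 were called lower in *6KO1*, 4 in *E1 S1S2*, 2 in each of *E2*, *E1E2* and *6KO2*, and 1 in *E1*. In *E1E2 G9Gl* 3 were called higher and *Pdgfra* lower. Of 10 gonadal somatic markers, 5 had no count in WT, *Fshr* and *Hsd3b1* had no count in any library and the sum lay between 564 and 725 in WT, 557 and 654 in *E1E2 G9Gl*, and 239 and 494 in the other conditions. *Insl3* of this list was called higher in *E1E2 G9Gl*, and *Inhbb* lower in *E1*, *E1 S1S2*, *6KO1*, *E2* and *E1E2*. The 8 pluripotent cell markers summed to between 6.39 and 18.1 in WT, between 35.8 and 41.4 in *E1E2 G9Gl* and at most 34.3 elsewhere, with *Zfp42* and *Utf1* at 0 in every library. *Dppa5a* of this list was called higher in *E1*, *E1 S1S2*, *6KO1*, *E1E2 G9Gl* and *6KO2*, and *Esrrb* in *6KO1* and *E1E2 G9Gl*. The sum of 6 epithelial markers lay between 36.2 and 65.2 in WT and higher in all 7 mutant conditions, from 119 to 143 in *6KO2*, the lowest, to 433 to 459 in *6KO1*, the highest. *Krt8* of this list was called higher in all 7, and *Epcam* lower in *E1 S1S2*, *6KO1*, *E2*, *E1E2 G9Gl* and *6KO2*. The sum of 6 immune and endothelial markers lay between 98.6 and 117 in WT, 580 and 643 for *6KO1*, 155 and 192 for *E1E2 G9Gl*, and 176 and 189 for *6KO2*, with *Adgre1* at 0 in all libraries. *Ptprc* and *Cdh5* of this list were called higher in all 3 of these mutant conditions. The part of these other cell type markers in the results below was not tested. In bulk RNA, few cells with much of a transcript cannot be told from many cells with little.

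In WT, 34 of the 42 members had 10 or fewer counts over the 3 libraries together, and 16 had none. Summed over all members, normalized counts lay between 392 and 480 in WT, between 2335 and 2380 in *6KO1*, and between 2169 and 2254 in *E1E2 G9Gl*. In *6KO2* they lay between 979 and 999, near the other mutant conditions. These had 881 to 972 in *E1*, 1033 to 1048 in *E1 S1S2*, 961 to 1047 in *E2* and 1052 to 1070 in *E1E2*. Much of some sums came from *Syce2*, with mean normalized counts of 204 (WT), 299 (*E1*), 295 (*E1 S1S2*), 528 (*E2*) and 508 (*E1E2*). Its mean was lower for *6KO2* (172), *E1E2 G9Gl* (47.1) and *6KO1* (9.32). How near the *6KO2* sums lay to the other mutant conditions thus depended on *Syce2*. Sums without this gene were not taken. Genes with few counts everywhere were left out of the test, which kept 18 members. The 24 others never exceeded 12 counts in a library. A member that passed only through the condition where it is high had to differ, so the calls below are read over all 42 members and beside the share of all genes called.

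**Figure D1:**
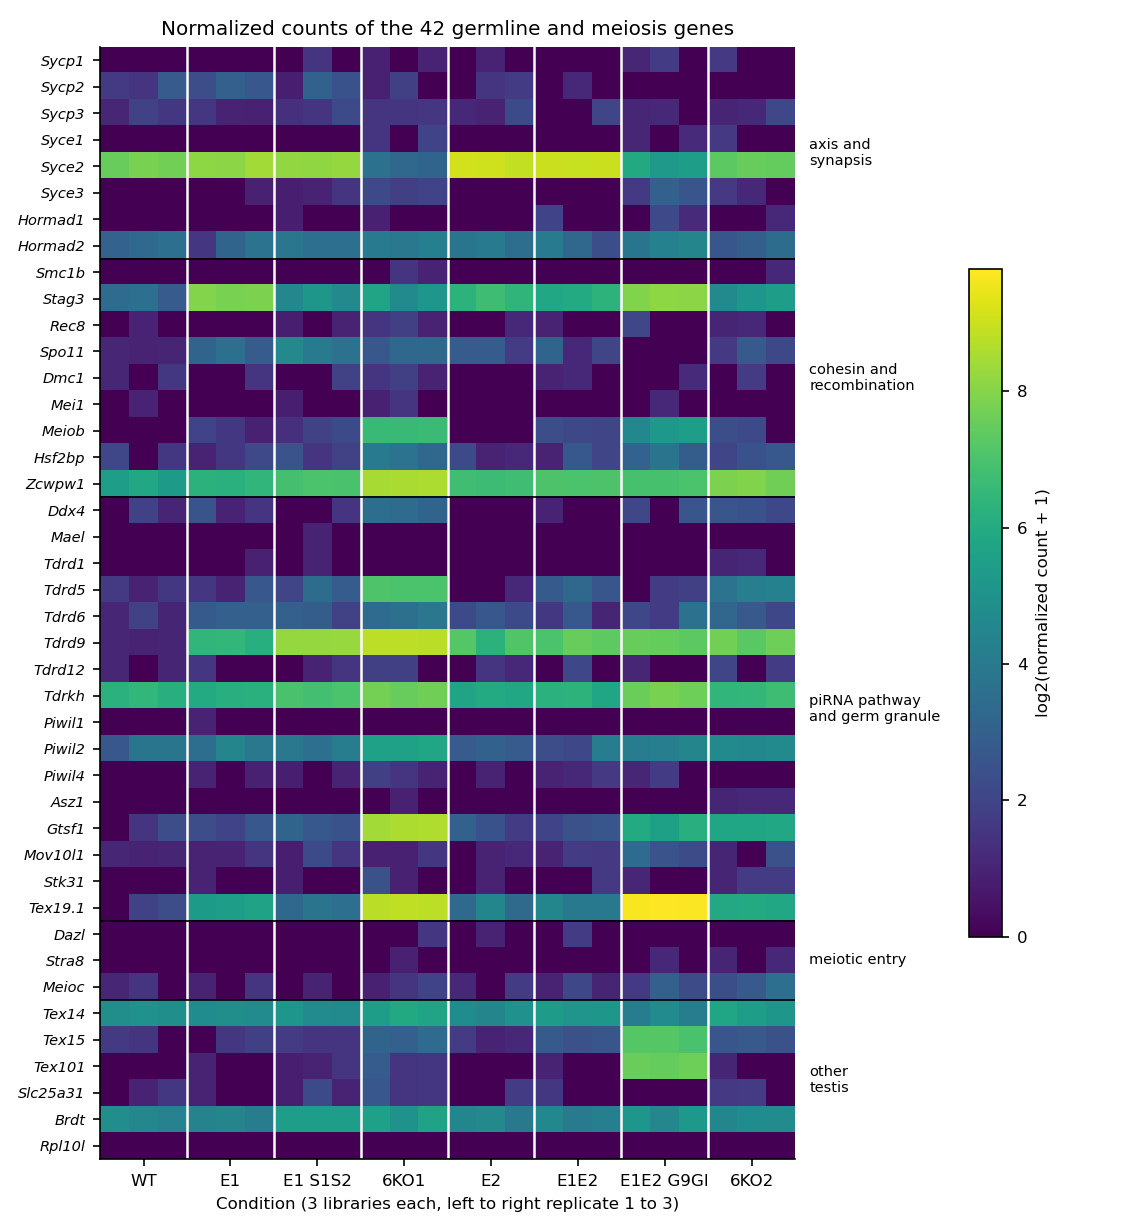
Level of each of the 42 germline and meiosis genes (rows, grouped by role) in each of 24 libraries (columns, 3 per condition), as log2(normalized count + 1). Most rows are dark in all libraries, a few such as *Tdrd9* and *Tex19.1* are darkest in WT, and *Tex101* is bright only in *E1E2 G9Gl*.

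Against WT, 15 members were called in at least 1 condition, and each of these 15 was higher in at least 1. All 7 comparisons use the same 3 WT libraries. In *E1* 4 members were higher (*Stag3*, *Spo11*, *Tdrd9* and *Tex19.1*), where 2.27% of all 18565 genes tested were called higher. In *E1 S1S2* 6 were higher (6.65% of all genes) and in *6KO1* 14 (20.6%), with *Syce2* lower in *6KO1* (10.2% of all genes). In the other series the number was 5 for *E2* (2.9%), 6 for *E1E2* (5.51%), 10 for *E1E2 G9Gl* (16.8%) and 8 for *6KO2* (15.3%), with *Syce2* lower in *E1E2 G9Gl* (8.41%). As a share of the 42 members, these counts run from 9.52% in *E1* to 33.3% in *6KO1*. These shares also count members left out of the test, while the shares of all genes cover tested genes only. *Stag3*, *Tdrd9* and *Tex19.1* were higher in all 7 conditions. How many of all genes were called in at least 1 condition, or higher in all 7, was not counted. The counts of members over several conditions thus have no share of all genes beside them. Without WT replicate 2 the counts of members called higher were 3 for *E1*, 5 for *E1 S1S2*, 15 for *6KO1*, 5 for *E2*, 5 for *E1E2*, 9 for *E1E2 G9Gl* and 7 for *6KO2*.

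**Figure D2:**
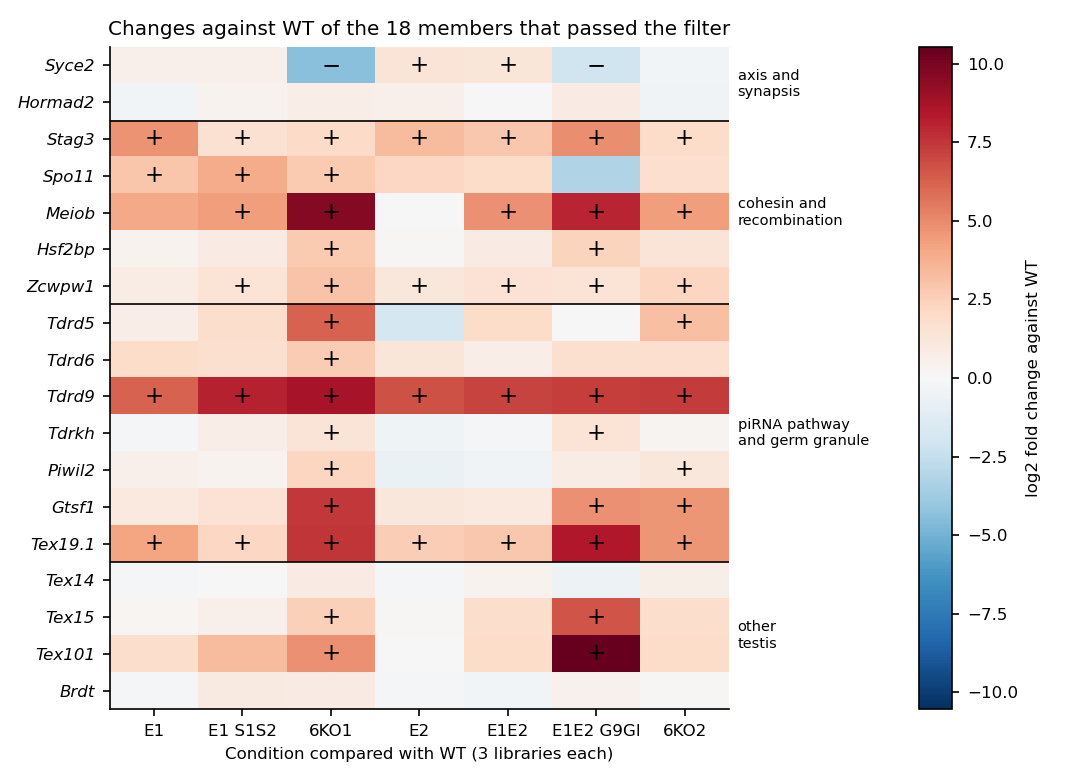
Log2 fold change against WT (colour) of the 18 members that passed the low-count filter in the 7 mutant conditions, 3 libraries each, with a plus sign for members called higher and a minus sign for members called lower. *Stag3*, *Tdrd9* and *Tex19.1* are marked in every column and *Syce2* is marked lower in *6KO1* and *E1E2 G9Gl*.

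A second description used the 34 members that were nearly silent in WT, with 10 or fewer counts over its libraries. Having at least 10 counts in each of 3 libraries was called detected. In *E1*, 2 of the 34 (5.88%) were detected, beside 0.516% of 9100 protein-coding genes as low in WT. The corresponding shares were 8.82% and 1.42% in *E1 S1S2*, 2.94% and 0.473% in *E2*, and 5.88% and 1.2% in *E1E2*. They were 17.6% (6 genes) and 8.03% for *6KO1*, 17.6% (6 genes) and 6.33% for *E1E2 G9Gl*, and 11.8% (4 genes) and 5.63% for *6KO2*. These shares are given without a test, since members were listed with results of these data known.

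**Figure D3:**
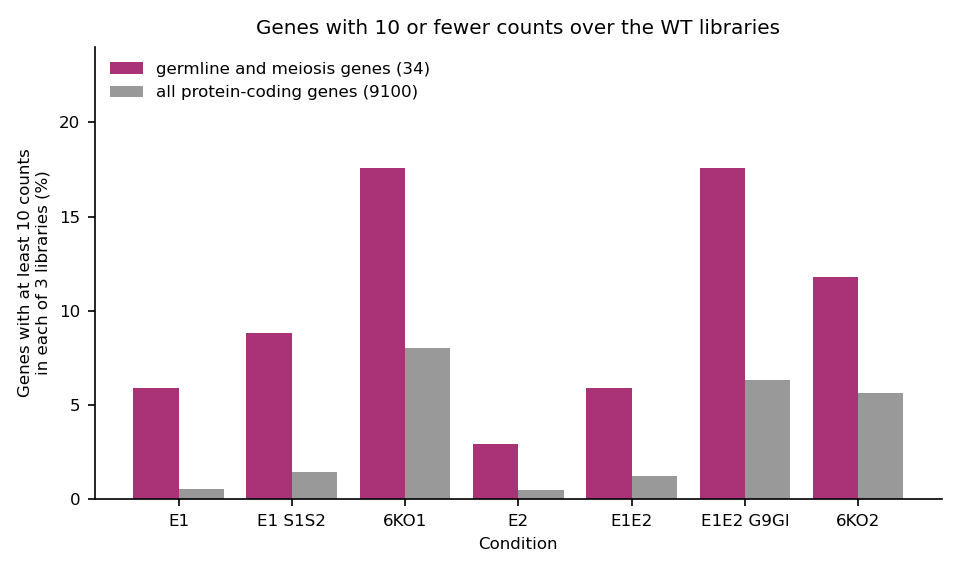
Percentage of genes with at least 10 counts in each of 3 libraries of a condition, among genes with 10 or fewer counts over the 3 WT libraries, for the 34 such members and for all 9100 such protein-coding genes. The bars for the members run from 2.94% in *E2* to 17.6% in *6KO1* and *E1E2 G9Gl*.

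Promoter windows of 250 bases before to 50 bases after the transcription start were found for 37 members in the RefSeq table (GRCm38.p6). The palindrome CACGTG lay in a window of 14 of these 37 genes (37.8%), beside 8.91% of 17492 protein-coding genes. TCCCGC, the core that E2F6 of PRC1.6 recognises, searched on both strands, lay in 17 (45.9%) beside 28.4%. A match to one motif can share at most 1 base with a match to the other. CpG observed over expected was at least 0.6 in 25 genes (67.6%) beside 50.9%. Of the 22 E-boxes, counted once per window, all lay before the start and 15 of them within 100 bases of it. A site in overlapping windows of a gene, as for *Hormad1*, *Stk31* and *Tdrd1*, is counted in each, so the distinct sites are fewer. E-boxes lay in windows of 3 of the 10 matched members called against WT and of 11 of the 27 not called. The 5 members with no window (*Meiob*, *Piwil2*, *Spo11*, *Tdrd6* and *Tex15*) are all among the 15 called, so these shares leave out part of the called members only. The windows of 5 members are printed here, 250 bases up to the start on the gene's strand, with CACGTG in capitals. They show 2 members called in all conditions, with and without an E-box (*Tdrd9*, *Tex19.1*), and a member with its high level in 1 condition (*Tex101*). The other 2 members have an E-box within 100 bases of the start, as *Tdrd9* does, and almost no counts in any library (*Hormad1*, *Sycp1*).
Tdrd9, chr12:111971309-111971558, plus strand: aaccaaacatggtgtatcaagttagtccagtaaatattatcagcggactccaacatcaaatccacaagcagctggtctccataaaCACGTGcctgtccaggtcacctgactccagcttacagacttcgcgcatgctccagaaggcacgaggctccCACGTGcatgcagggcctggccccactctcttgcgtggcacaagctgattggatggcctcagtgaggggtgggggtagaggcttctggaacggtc
Tex19.1, chr11:121145893-121146142, plus strand: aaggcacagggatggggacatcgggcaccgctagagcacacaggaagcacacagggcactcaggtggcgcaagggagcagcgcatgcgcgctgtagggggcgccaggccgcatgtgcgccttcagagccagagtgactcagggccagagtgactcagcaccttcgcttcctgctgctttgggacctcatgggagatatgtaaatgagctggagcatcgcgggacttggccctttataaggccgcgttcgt
Tex101, chr7:24672051-24672300, minus strand: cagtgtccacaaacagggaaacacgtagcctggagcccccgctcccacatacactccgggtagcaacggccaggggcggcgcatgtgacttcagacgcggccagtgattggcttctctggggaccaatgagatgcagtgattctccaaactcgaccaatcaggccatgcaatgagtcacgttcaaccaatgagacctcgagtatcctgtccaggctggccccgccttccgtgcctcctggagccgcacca
Hormad1, chr3:95559427-95559676, plus strand: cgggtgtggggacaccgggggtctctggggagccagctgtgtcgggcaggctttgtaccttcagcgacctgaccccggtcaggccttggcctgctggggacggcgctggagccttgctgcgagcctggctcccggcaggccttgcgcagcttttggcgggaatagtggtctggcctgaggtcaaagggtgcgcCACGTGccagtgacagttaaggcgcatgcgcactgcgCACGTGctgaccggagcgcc
Sycp1, chr3:102936101-102936350, minus strand: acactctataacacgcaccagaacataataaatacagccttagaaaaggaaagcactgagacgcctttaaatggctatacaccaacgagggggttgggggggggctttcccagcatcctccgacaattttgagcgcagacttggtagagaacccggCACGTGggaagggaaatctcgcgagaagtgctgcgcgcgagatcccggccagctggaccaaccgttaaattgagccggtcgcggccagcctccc
The *Tdrd9* stretch holds 8 CpG and that of *Tex19.1* 15. *Hormad1* has a pair of E-boxes, at 57 and 20 bases before the start, and *Tdrd9* a pair farther away, at 165 and 95 bases before it. The single E-box of *Sycp1*, at 94 bases before its start, is about as far as the nearer one of *Tdrd9*.

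**Figure D4:**
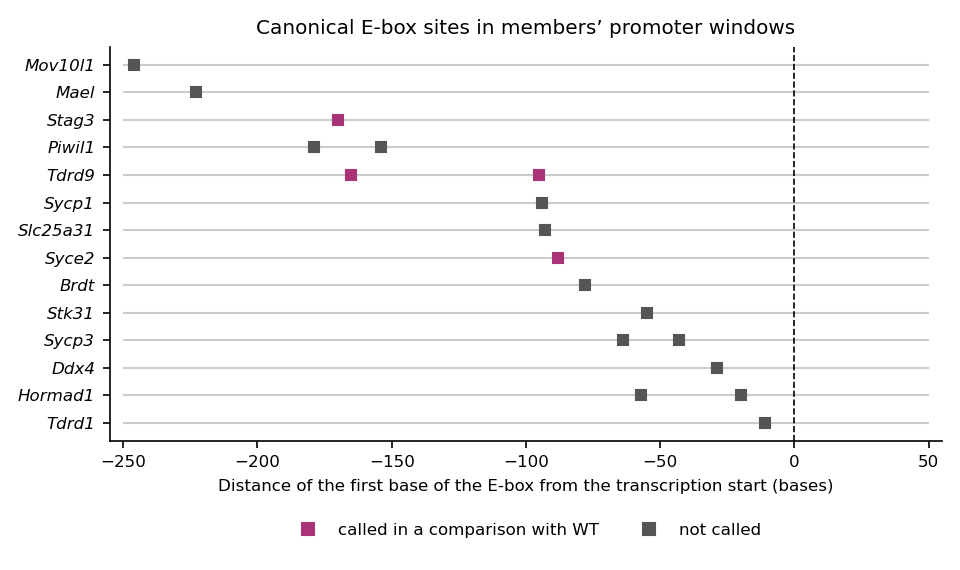
Distance in bases from the transcription start (dashed line, 0) of the first base of each canonical E-box in the promoter windows (grey lines) of the 14 members that have one, from the first window with a site where a gene has several. Members called in a comparison with WT (*Stag3*, *Tdrd9*, *Syce2*) are coloured, and all sites lie before the start.

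Chromosome axis and synaptonemal complex. Of the 8 genes of this group, *Syce2* and *Hormad2* passed the filter, and *Syce2*, which codes for a central element protein of the synaptonemal complex, had the highest normalized count of all members in WT. *Syce2* (ENSMUSG00000003824, chromosome 8 from 84872111 to 84888221 of GRCm38) had normalized counts of 180.1, 227 and 206 in WT, 281, 268 and 348 for *E1*, 294, 289 and 302 for *E1 S1S2* and 11.4, 8.7 and 7.82 for *6KO1*. In the other series it had 562, 547 and 474 for *E2*, 512, 497 and 514 for *E1E2*, 60.4, 38.2 and 42.7 for *E1E2 G9Gl* and 157, 179 and 178 for *6KO2*. The *6KO1* and *E1E2 G9Gl* libraries thus lay below all WT libraries and the *E2* and *E1E2* libraries above them, while those of *6KO2* lay just under the lowest WT library and were not called. Against WT, *Syce2* fell by 4.43 on the log2 scale in *6KO1* (SE 0.19, adjusted p = 9.7e-16, edgeR) and by 2.11 in *E1E2 G9Gl* (SE 0.15, adjusted p = 1.07e-11). It rose by 1.37 in *E2* (SE 0.11, adjusted p = 1.66e-09) and by 1.31 in *E1E2* (SE 0.11, adjusted p = 2.15e-09). *Hormad2*, an axis protein of unsynapsed chromosomes, had condition means between 7.32 ± 2.42 and 17.4 ± 4.01 (SD, n = 3) and no call against WT. *Sycp1*, *Sycp2*, *Sycp3*, *Syce1*, *Syce3* and *Hormad1*, which build the transverse filaments, the lateral and central elements and the axis, stayed at or below 8 counts in every library. *Sycp3* shares 660 exon bases with *Chpt1* on the other strand.

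Meiotic cohesin and recombination. *Stag3*, a cohesin subunit of meiotic chromosomes (ENSMUSG00000036928, chromosome 5 from 138280240 to 138312393 of GRCm38), had normalized counts of 9.59, 11 and 6.02 in WT. It had 247, 224 and 229 for *E1*, 21.9, 35.3 and 23.4 for *E1 S1S2* and 51, 24.4 and 34.2 for *6KO1*. In the second series it had 79.7, 106 and 84.4 for *E2*, 58.1, 62 and 78.6 for *E1E2*, 246, 276 and 268 for *E1E2 G9Gl* and 24.8, 34.3 and 44.2 for *6KO2*. Every mutant library lay above all WT libraries, and the levels did not follow the number of enzymes mutated, with *E1* and *E1E2 G9Gl* far above both *6KO* lines. The log2 fold changes against WT were 4.69 in *E1* (SE 0.25, adjusted p = 1.61e-12, edgeR) and 4.87 in *E1E2 G9Gl* (SE 0.25, adjusted p = 5.53e-14), and between 1.57 and 3.33 in the other 5 conditions.

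*Meiob*, a single-strand DNA binding protein of meiotic recombination (ENSMUSG00000024155, chromosome 17 from 24804289 to 24839788 of GRCm38), had no count in WT or *E2*. It had 96.7, 99.2 and 102 normalized counts for *6KO1* and 22.7, 35.8 and 42.7 for *E1E2 G9Gl*. Raw counts per library were 3, 2 and 1 for *E1*, 2, 3 and 4 for *E1 S1S2*, 4, 3 and 3 for *E1E2* and 4, 3 and 0 for *6KO2*. Against a floor of 3 counts over the WT libraries, *Meiob* was at least 100.1-fold higher in *6KO1* (adjusted p = 9.05e-12, edgeR) and at least 33.5-fold higher in *E1E2 G9Gl* (adjusted p = 8.93e-09). Its calls in *E1 S1S2* (at least 2.6-fold, adjusted p = 0.00745), *E1E2* (at least 3.5-fold, adjusted p = 0.00395) and *6KO2* (at least 2.57-fold, adjusted p = 0.00748) rest on 7 to 10 counts. Each was lost when single libraries were left out, which were any 1 of the WT libraries (for *E1E2*, WT replicate 2 or 3), *E1 S1S2* replicate 2 or 3, *E1E2* replicate 1, and *6KO2* replicate 1 or 2, with adjusted p between 0.0117 and 0.0373.

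*Zcwpw1*, a reader of the histone marks that PRDM9 sets (ENSMUSG00000037108, chromosome 5 from 137787798 to 137822621 of GRCm38), was detected in WT at 42.6, 55.7 and 39.1 normalized counts. It had 78.1, 74 and 87 for *E1*, 117, 127 and 125 for *E1 S1S2* and 360.5, 372 and 377 for *6KO1*. It had 108, 103 and 109 for *E2*, 131, 129.5 and 133 for *E1E2*, 121, 123 and 128 for *E1E2 G9Gl* and 233, 243 and 199.9 for *6KO2*. No mutant library overlapped with WT, and *6KO1* and then *6KO2* were highest, with log2 fold changes against WT of 3.0 for the first (SE 0.11, adjusted p = 7.32e-17, edgeR) and 2.29 for the second (SE 0.11, adjusted p = 4.37e-14). In *E1* the change of 0.79 was under the fold minimum. *Zcwpw1* shares 468 exon bases with *Pilra* on the other strand, and *Pilra* had no count in WT and 59 and 71 counts over the *6KO1* and *E1E2 G9Gl* libraries. Whether the counting used the strand is not given in the sources used here.

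*Spo11*, the enzyme that cuts DNA to start recombination (ENSMUSG00000005883, chromosome 2 from 172977700 to 172993576 of GRCm38), had few counts in all conditions. Raw counts per library were 1, 1 and 1 in WT, 8, 11 and 7 for *E1*, 30, 17 and 13 for *E1 S1S2* and 6, 10 and 9 for *6KO1*. They were 5, 7 and 2 for *E2*, 8, 1 and 3 for *E1E2*, 0, 0 and 0 for *E1E2 G9Gl* and 2, 5 and 3 for *6KO2*. The ratio to WT was 17.3 in *E1 S1S2* (95% interval 5.66 to 86.5, which like the floors covers counting error only, adjusted p = 6.55e-06, edgeR). In *E1* it was 8.27 (2.54 to 42.7, adjusted p = 0.00365) and in *6KO1* 7.63 (2.33 to 39.5, adjusted p = 0.00111). The call in *E1* was lost without *E1* replicate 2 (adjusted p = 0.0196) or any 1 of the WT libraries (0.0112 to 0.0146). *Hsf2bp*, which brings recombinases to meiotic breaks, went from 5 counts over the WT libraries to 40 in *6KO1* and 23 in *E1E2 G9Gl*, with log2 fold changes of 2.78 (adjusted p = 0.000115) and 2.35 (adjusted p = 0.00192). The second call was lost without *E1E2 G9Gl* replicate 2 (adjusted p = 0.0174) or WT replicate 2 (0.0142). *Smc1b*, *Rec8*, *Dmc1* and *Mei1*, the meiotic cohesins, a recombinase and a factor for break formation, had at most 3 counts in a library.

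The piRNA pathway and germ granule. Of the 16 genes of this group, 7 passed the filter. *Tdrd9*, a helicase of the piRNA pathway (ENSMUSG00000054003, chromosome 12 from 111971559 to 112068854 of GRCm38), had 1 count in each WT library. Its normalized counts were 86.9, 87.8 and 71.2 for *E1*, 302, 303 and 308 for *E1 S1S2* and 449, 453 and 442 for *6KO1*. They were 145, 76.2 and 140.2 for *E2*, 129, 179 and 161 for *E1E2*, 182, 175 and 159 for *E1E2 G9Gl* and 206, 154 and 197 for *6KO2*. All 21 mutant libraries lay above WT, the libraries of the first series rose with each step without overlap, and *E1E2*, *E1E2 G9Gl* and *6KO2* overlapped with each other. From 3 WT counts, the ratio to WT was 82.4 in *E1* (95% counting interval 27.9 to 402, adjusted p = 7.67e-11, edgeR) and 453 in *6KO1* (155 to 2199, adjusted p = 1.02e-16). In *E2*, without 4-OHT, it was 117 (39.8 to 572, adjusted p = 4.93e-12).

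*Tex19.1*, which protects germ cells against retrotransposons (ENSMUSG00000039329, chromosome 11 from 121146143 to 121148319 of GRCm38), had 0, 2.74 and 4.01 normalized counts in WT. It had 39.1, 42.4 and 48.4 for *E1*, 8.61, 12.7 and 10.8 for *E1 S1S2* and 439, 457 and 445 for *6KO1*. In the second series it had 9.52, 21.5 and 9.51 for *E2*, 21.7, 14.4 and 14.5 for *E1E2*, 833, 882 and 848 for *E1E2 G9Gl* and 59, 61.7 and 57.4 for *6KO2*. The *E1E2 G9Gl* libraries were highest and those of *6KO1* next, and the low *E1 S1S2*, *E2* and *E1E2* libraries were still above WT. Log2 fold changes against WT were 8.46 in *E1E2 G9Gl* (SE 0.24, adjusted p = 6.84e-19, edgeR), 7.52 in *6KO1* (SE 0.25, adjusted p = 1.47e-17) and 4.61 for *6KO2* (SE 0.34, adjusted p = 5.59e-11). Its neighbouring paralog *Tex19.2* had 19 counts over the *6KO1* libraries, 16 over those of *E1E2 G9Gl* and none in WT, and how reads shared by both were split is uncertain.

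*Gtsf1*, a cofactor of PIWI proteins (ENSMUSG00000022487, chromosome 15 from 103402405 to 103430470 of GRCm38), had 0, 1.83 and 4.01 normalized counts in WT, 3.91, 2.96 and 5.28 for *E1* and 7.83, 5.43 and 4.5 for *E1 S1S2*. It had 7.14, 4.48 and 2.38 for *E2* and 2.96, 4.43 and 5.17 for *E1E2*. Far above these, it had 348, 384 and 395 for *6KO1*, 62.6, 46.3 and 69.9 for *E1E2 G9Gl* and 52.7, 53.7 and 55.2 for *6KO2*. The conditions with *G9a* and *Glp* mutated stood apart from the other 5, with log2 fold changes against WT of 7.48 in *6KO1* (SE 0.27, adjusted p = 7.17e-17, edgeR), 4.82 in *E1E2 G9Gl* (SE 0.35, adjusted p = 2.35e-11) and 4.68 for *6KO2* (SE 0.35, adjusted p = 8.73e-11). *Tdrd5*, a Tudor protein of the germ granule (ENSMUSG00000060985, chromosome 1 from 156255296 to 156303664 of GRCm38), differed from it in *E1E2 G9Gl*. Its normalized counts were 134, 128 and 130.1 for *6KO1* and 12.4, 17.1 and 18.8 for *6KO2*. Raw counts per library were 2, 1 and 2 in WT, 2, 1 and 6 for *E1*, 4, 11 and 7 for *E1 S1S2*, 0, 0 and 1 for *E2*, 6, 8 and 5 for *E1E2* and 0, 2 and 2 for *E1E2 G9Gl*. Both *6KO* lines lay above all other libraries, with log2 fold changes against WT of 6.2 for *6KO1* (SE 0.35, adjusted p = 2.34e-13) and 3.19 for *6KO2* (SE 0.53, adjusted p = 1.52e-05).

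The 3 other tested genes of this group were called too. *Tdrkh*, a mitochondrial partner of PIWI proteins, had a mean of 77.2 ± 9.47 normalized counts in WT (SD, n = 3) and rose by 1.35 on the log2 scale in *6KO1* (adjusted p = 2.83e-09, edgeR) and by 1.41 in *E1E2 G9Gl* (adjusted p = 2.08e-09), with values of 0.27 in *6KO2* and -0.18 in *E1*. It shares 2255 exon bases with *Oaz3* on the other strand, which had at most 18 counts in a condition. *Piwil2*, a PIWI protein, rose by 2.22 in *6KO1* (adjusted p = 6.51e-07) and by 1.16 in *6KO2* (adjusted p = 0.00617), and the second call was lost without any 1 of the *6KO2* libraries (adjusted p of 0.0132 to 0.0173) or WT replicate 1 (0.0382). *Tdrd6*, a scaffold of the germ granule, went from 5 counts over the WT libraries to 38 in *6KO1* (log2 fold change 2.71, adjusted p = 0.000158). *Piwil1*, *Mael*, *Asz1*, *Tdrd1*, *Tdrd12*, *Piwil4* and *Stk31*, which act in the same pathway or granule, had at most 5 counts in a library. *Mov10l1*, the helicase that starts piRNA processing, reached 9 counts in 1 library of *E1E2 G9Gl*. *Ddx4*, the helicase also called VASA, had 12, 11 and 8 counts in *6KO1* beside 0, 3 and 1 in WT and 5, 4 and 3 for *6KO2*. It did not pass the filter, and without a filter it was called in *6KO1* (log2 fold change 2.68, adjusted p = 0.00039, edgeR).

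**Figure D5:**
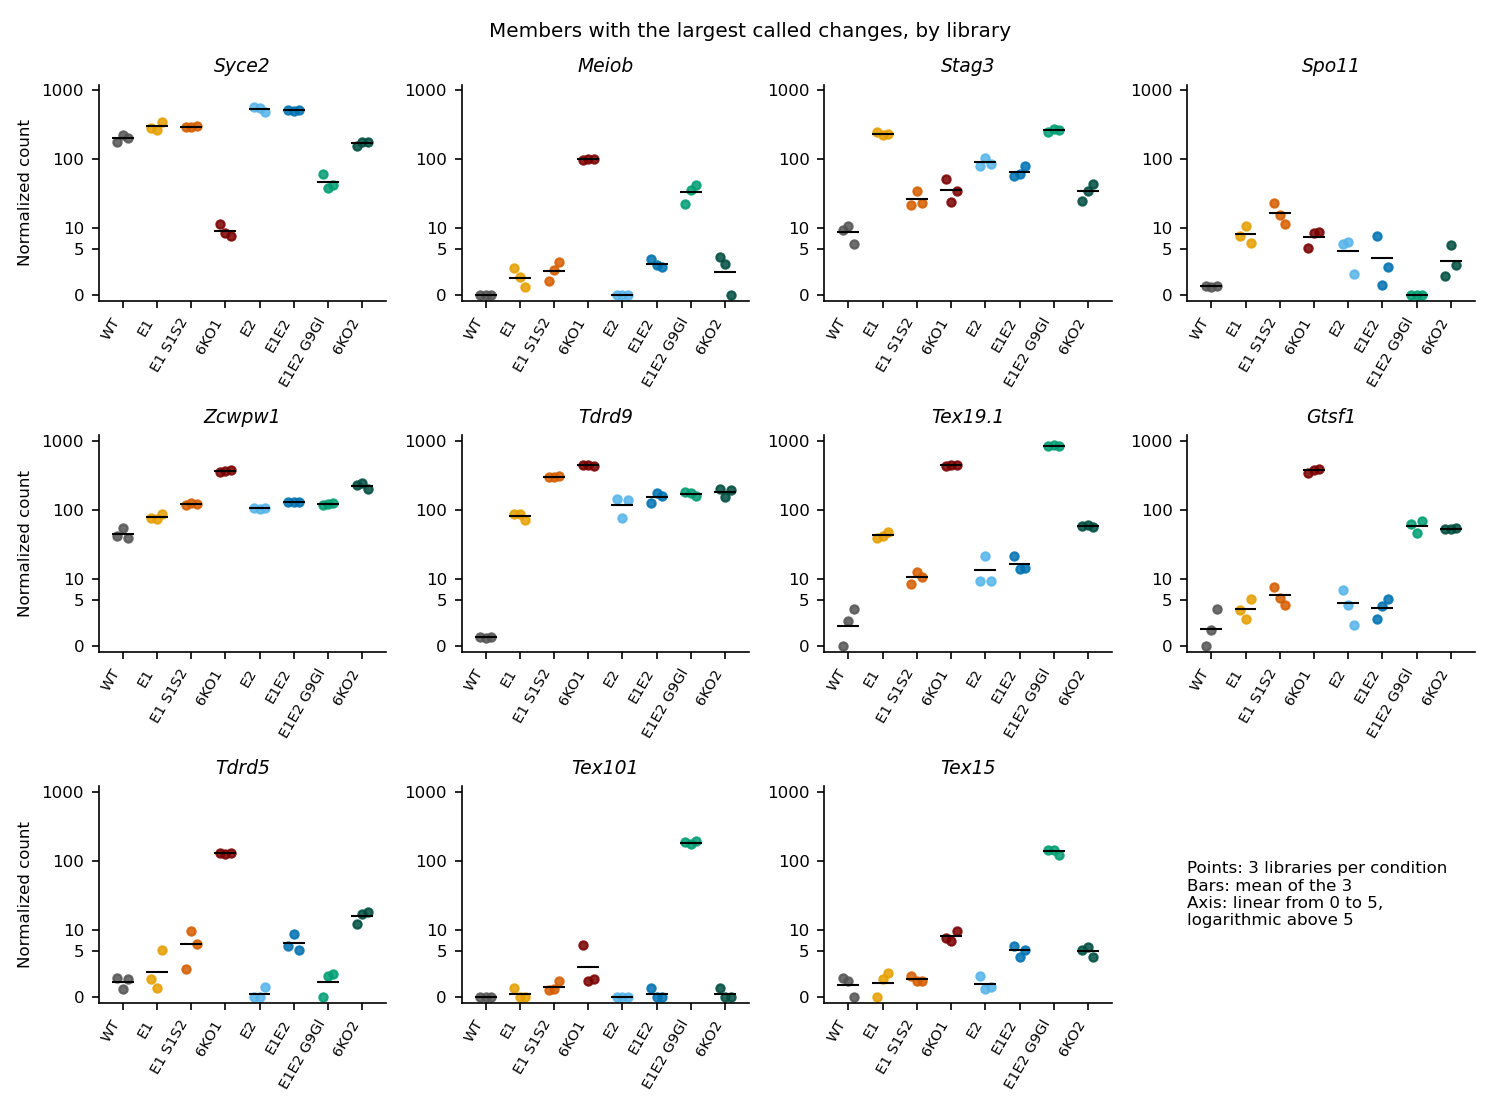
Normalized counts of the 11 members with the largest called changes in each role group, by library (points, 3 per condition) with the mean (bar), on an axis that is linear from 0 to 5 and logarithmic above. *Tdrd9* and *Stag3* lie above WT in every mutant condition, *Tex101* and *Tex15* peak in *E1E2 G9Gl*, and *Syce2* drops in *6KO1* and *E1E2 G9Gl*.

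Meiotic entry and other testis genes. *Stra8*, *Dazl* and *Meioc*, which start meiosis or hold the germ-cell RNA program, did not pass the filter. *Stra8* and *Dazl* had at most 2 counts in a library and *Meioc* at most 10. A pair of testis genes had by far their highest level in *E1E2 G9Gl*. *Tex101*, a surface protein of germ cells (ENSMUSG00000062773, chromosome 7 from 24668007 to 24676675 of GRCm38), had 188, 175 and 194 normalized counts for *E1E2 G9Gl* and no count in WT or *E2*. Its raw counts were 7, 2 and 2 for *6KO1*, 1, 1 and 2 for *E1 S1S2*, and 1 over the libraries of each of *E1*, *E1E2* and *6KO2*. Against the floor of 3 WT counts it was at least 187-fold higher in *E1E2 G9Gl* (adjusted p = 2.86e-13, edgeR) and at least 3.36-fold in *6KO1* (adjusted p = 0.00153), a call lost without *6KO1* replicate 1 (adjusted p = 0.0131). *Tex15*, a factor for DNA repair and transposon silencing in germ cells (ENSMUSG00000009628, chromosome 8 from 33516738 to 33585582 of GRCm38), had 146, 146 and 124 normalized counts for *E1E2 G9Gl* and 7.91, 6.96 and 9.78 for *6KO1*. Raw counts per library were 2, 2 and 0 in WT, 0, 2 and 3 for *E1*, 3, 2 and 2 for *E1 S1S2*, 2, 1 and 1 for *E2*, 6, 4 and 5 for *E1E2* and 5, 5 and 4 for *6KO2*. The *E1E2 G9Gl* libraries stood more than 10 times above all others, with a log2 fold change against WT of 6.59 (SE 0.30, adjusted p = 5.3e-15) beside 2.52 in *6KO1* (SE 0.51, adjusted p = 0.000131). *Tex14*, of germ-cell bridges, and *Brdt*, a bromodomain protein of spermatids, were detected in WT at means of 28.6 ± 1.3 and 22.5 ± 3.82 (SD, n = 3) and were not called against WT. *Slc25a31* had at most 6 counts in a library and *Rpl10l* none in any.

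As RPKM (reads per kilobase of exon, scaled to library size), the highest levels were those of *Tex19.1* in *E1E2 G9Gl* (18), *Gtsf1* in *6KO1* (10.7), *Syce2* in *E2* (10.6) and *E1E2* (10.2), and *Tex19.1* in *6KO1* (9.43). *Tex101* reached 4.42 in *E1E2 G9Gl* and *Tdrd9* 3.27 in *6KO1*. On this scale no other member exceeded *Zcwpw1* in *6KO1* (2.56).

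Apart from *E1E2* versus *E2*, the steps of each series compare a clone with the line it was made from, both after 4-OHT. Each clone was made before 4-OHT was added. Adding mutations of *Suv39h1* and *Suv39h2* to *E1* (*E1 S1S2* versus *E1*) went with 2 members higher (4.31% of all genes were called higher) and 2 lower (3.74%). *Tdrd9* rose by 1.9 (SE 0.16, adjusted p = 2.14e-09, edgeR) and *Brdt* by 1.2 (SE 0.22, adjusted p = 8.7e-05). *Stag3* fell by 3.12 (SE 0.21, adjusted p = 2.97e-11) and *Tex19.1* by 2.02 (SE 0.25, adjusted p = 5.89e-07). From *E1 S1S2* to *6KO1*, with *Eset2*, *G9a* and *Glp* mutated in addition, 8 members were higher (16.3% of all genes) and 2 lower (5.02%). *Gtsf1* (5.94), *Tex19.1* (5.38), *Meiob* (5.2) and *Tdrd5* (4.34) had the largest log2 rises, and *Syce2* fell by 4.96. *Spo11* fell by 1.16 (adjusted p = 0.00872), a call lost without any 1 of the *6KO1* libraries or of *E1 S1S2* replicates 1 and 2 (adjusted p of 0.0134 to 0.0852). *Hsf2bp*, one of the 8, was lost without *6KO1* replicate 1 (adjusted p = 0.0101).

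In the second series, adding mutations of *G9a* and *Glp* to *E1E2* went with 7 members higher (14.8% of all genes) and 2 lower (6.78%). *Tex101* went from 1 count to 475 over the libraries, and the log2 rises of *Tex19.1*, *Tex15*, *Gtsf1*, *Meiob*, *Stag3* and *Tdrkh* were 5.64, 4.71, 3.8, 3.22, 1.99 and 1.56. *Syce2* fell by 3.42 and *Spo11* went from 12 counts to 0 over the libraries, a call lost without *E1E2* replicate 1 (adjusted p = 0.0201). The last step, from *E1E2 G9Gl* to *6KO2*, went with 6 members lower (9.12% of all genes) and 4 higher (7.19%). *Tex101* went from 475 counts back to 1, *Tex15* fell by 4.73 (SE 0.25, adjusted p = 1.69e-13, edgeR), *Tex19.1* by 3.84 (SE 0.15, adjusted p = 1.23e-15), *Meiob* by 3.65, *Stag3* by 2.94 and *Tdrkh* by 1.13. *Tdrd5* (3.26), *Syce2* (1.85), *Tex14* (1.17) and *Spo11* (0 to 10 counts) rose. The *Spo11* call was lost without *6KO2* replicate 2 (adjusted p = 0.0209) or any 1 of the *E1E2 G9Gl* libraries (0.0147 to 0.0176), and *Tex14* fell under the fold minimum without *6KO2* replicate 1. *Tex101*, *Tex15*, *Tex19.1*, *Stag3*, *Meiob* and *Tdrkh* were thus lower in *6KO2* than in the line it was made from, with fewer enzymes mutated. Adding 4-OHT to the *Eset2* clone (*E1E2* versus *E2*) went with 1 member higher, *Tdrd5* (2.32% of all genes), from 1 count to 19 over the libraries, a call lost without *E2* replicate 1 or 2 or *E1E2* replicate 2 (adjusted p of 0.0138 to 0.0262).

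Both *6KO* lines carry mutations of the same 6 enzymes and were compared with each other. In *6KO1* 7 members were higher than in *6KO2* (9.77% of all genes) and 1 was lower (7.1%). *Meiob* differed by 5.22 on the log2 scale (SE 0.34, adjusted p = 1.72e-10, edgeR), *Tdrd5* by 3.02 (SE 0.24, adjusted p = 2.44e-10), *Tex19.1* by 2.91 (SE 0.15, adjusted p = 1.54e-13) and *Gtsf1* by 2.8 (SE 0.17, adjusted p = 1.45e-12). *Tdrd9*, *Tdrkh* and *Piwil2* differed by 1.27, 1.08 and 1.06. *Syce2* was the lower member in *6KO1*, at -4.18 (SE 0.19, adjusted p = 1.59e-14). The order of the mutations, the clone and the history of the line cannot be told apart here.

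Whether a step changed a member differently by background was tested with the interaction contrast. For the mutation of *Suv39h1* and *Suv39h2*, set beside each other in *E1E2 G9Gl* (to *6KO2*) and in *E1* (to *E1 S1S2*), 9 members differed (16.5% of all genes were called). *Tdrkh*, for example, had a log2 fold change of 0.85, under the fold minimum, in the *E1* background and fell in the other. For 4-OHT, set beside each other in the *Eset2* clone and in the parent line, 3 members differed (3.43% of all genes). *Stag3*, *Tdrd9* and *Tex19.1* rose after 4-OHT in the parent line, while in the *Eset2* clone, where all 3 were already above WT, they changed by -0.45, 0.40 and 0.25.

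Other germ-line genes were read from lists that share no gene with the members. Of 17 other meiosis genes, 8 passed the filter with 3 of them (17.6% of the list) called higher for *6KO1*, 2 (11.8%) for *E1E2 G9Gl* and 2 (11.8%) for *6KO2*. For all genes the shares were 20.6%, 16.8% and 15.3%, taken over tested genes only. The list shares also count genes that were not tested, so the 2 kinds of share cannot be compared directly. *Hfm1*, a helicase for crossovers, had 80, 78 and 60 counts in *E1E2 G9Gl*, 17, 12 and 11 in *6KO2*, 7, 6 and 5 in *6KO1* and 1 over the WT libraries. *Msh5*, which stabilises crossovers, rose by 2.0 in *6KO1* (adjusted p = 1.28e-07, edgeR), 1.99 for *E1E2 G9Gl* and 1.31 for *6KO2*. *Prdm9*, the methyltransferase that marks recombination sites, rose by 1.5 in *6KO1* (adjusted p = 1.58e-12). Of 20 other germ-line regulators, 7 passed the filter, with 5 (25% of the list) higher and 1 lower in *6KO1*, 5 (25%) higher in *6KO2* and 2 (10%) higher in *E1E2 G9Gl*. *Rhox5*, a homeobox gene of the testis and placenta, went from 8, 7 and 8 counts in WT to 3489, 3791 and 3492 for *6KO1*, 3211, 3182 and 2875 for *E1E2 G9Gl* and 1004, 911 and 959 for *6KO2*. It was also called higher in *E1* and *E1 S1S2*, without *G9a* and *Glp* mutated. Of the same list, *Tdrd7* was called higher in *E1 S1S2* and *E1E2* as well, and *Ddx25* lower in *E1 S1S2*. *Dppa2* and *Dppa4*, a pair of chromatin factors of the early embryo and germ line, had no count in WT or *E1E2 G9Gl*, but 120 and 292 counts over the *6KO1* libraries and 36 and 46 over those of *6KO2*. Among the members, *Tdrd5* was likewise called in both *6KO* lines and had 4 counts over the *E1E2 G9Gl* libraries. Of 15 oocyte genes, *Gdf9* and *Npm2* passed the filter, and 0 were called against WT in any condition by edgeR or DESeq2. At an unadjusted p under 0.05 (edgeR) 1 differed in *E1* and 1 in *E1E2 G9Gl*. All 14 PRC1.6 repressor genes passed the filter. In *6KO1* *Ring1* was higher by 1.05 and *Hdac2* lower, changing by -1.14. *Ring1* was also higher by 1.31 in *E1E2 G9Gl*. *Rnf2*, the ubiquitin ligase of the complex, changed by -1.27 in *E1E2 G9Gl* and -1.05 in *6KO2*.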

How the data were processed

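RNA was sequenced from 24 MEF cultures, 3 in each of 8 conditions named by the labels. Per the methods of the study, the authors trimmed reads with cutadapt 1.8.1, aligned them to GRCm38 with STAR 2.5.2b and counted them per gene and repeat with TEtranscripts, which shares reads that map to several places between features. The deposited values are whole-number counts, with no normalization. The strand setting of the counting is not given in the sources used here.

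From the 47937 gene rows (repeats and 1 malformed row of 459 to 786 counts per library were not used here), edgeR 4.0.16 was run with filterByExpr, TMM factors and the quasi-likelihood test, with 1 coefficient per condition over all 24 libraries and Benjamini-Hochberg adjustment over the 18565 genes tested. Depth was 19541909 to 31489070 counts per library. In total 13 comparisons and 2 interaction contrasts were tested. Genes with 0 counts in a group were compared with a floor of 3 counts over the group. With 1 to 3 counts, the ratio of counts is given with its 95% interval. Values by library are given for up to 4 called members of each role list with the largest change against WT. Alternatives were DESeq2 1.42.0, RLE factors, other filters and thresholds, the compared libraries alone, a replicate block and leaving out each library. Members, lists, tests and alternatives were chosen with earlier results of these data known. The statistics were tested on data simulated for WT and *E1* only, with 1 spread for all genes and no changes placed in genes with few counts. Calls on few counts and the interaction contrasts were thus not covered by this simulation. Promoter windows came from the RefSeq table of GRCm38.p6.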

Additional observations from a re-analysis of the deposited data

Results flagged for a closer look

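In 12 cases the interaction contrast differed from 0, that is, the same step gave a different log2 change in 2 backgrounds. All p-values are adjusted over all genes tested in edgeR's quasi-likelihood test, with 3 libraries in each of the 4 conditions of a contrast. Background, clone and order of mutation cannot be told apart in these designs.

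Of the 9 differences for the mutation of *Suv39h1* and *Suv39h2*, 7 were negative, meaning a lower change from *E1E2 G9Gl* to *6KO2* than from *E1* to *E1 S1S2*. They were -1.79 for *Tdrd9* (SE 0.23, adjusted p = 7.93e-07), -1.98 for *Tdrkh* (SE 0.19, adjusted p = 8.17e-09) and -1.82 for *Tex19.1* (SE 0.33, adjusted p = 7.42e-05), all of the piRNA and germ granule group. *Brdt* had -1.53 (SE 0.32, adjusted p = 0.000354) and *Tex15* -5.06 (SE 0.81, adjusted p = 1.63e-05). *Meiob* had -4.07 (SE 0.90, adjusted p = 0.000893) and *Tex101* -10.1 (SE 1.6, adjusted p = 3.09e-05), and since both had 0 to 4 counts per library in some of these conditions, the size of these fitted values depends on the prior count. *Tex15* had as few counts per library in *E1* and *E1 S1S2*, so the size of its value is uncertain too. The difference was positive for *Syce2* at 1.87 (SE 0.19, adjusted p = 1.82e-08) and for *Tex14* at 1.08 (SE 0.31, adjusted p = 0.00525). The value for *Tex14* was no longer called with DESeq2 (adjusted p = 0.0175), without a filter (0.0152), with the compared libraries alone (0.0101), or without *E1* replicate 1 or 2, *E1 S1S2* replicate 2 or 3, *E1E2 G9Gl* replicate 1 or 3, or *6KO2* replicate 1 (0.0105 to 0.0227).

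For 4-OHT, the change from *E2* to *E1E2* was lower than that from WT to *E1* by -5.15 for *Stag3* (SE 0.34, adjusted p = 9.77e-11), -5.80 for *Tdrd9* (SE 0.50, adjusted p = 1.19e-08) and -3.91 for *Tex19.1* (SE 0.51, adjusted p = 7.97e-06). *Setdb1* RNA was alike in *E2* and *E1E2*, as given above. Against WT it changed by -0.57 in *E1* (adjusted p = 6.83e-06) and by -0.31 in *E2* (adjusted p = 0.0026), both under the fold minimum. The state of *Eset1* in the *E2* and *E1E2* libraries thus rests on the sample titles, since the treatment label is the same for all samples. The fitted value for *Tdrd9* rests on 3 counts over the WT libraries.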

How the results depend on the processing

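Of 639 values of 48 called changes of the named members under the alternatives, 618 stayed called in the same direction, 21 missed the threshold and 0 reversed. These include the values with no fold minimum and with unadjusted p. Both only loosen the threshold of the same fit, so a called change could not be lost or reversed under them. These leave out changes whose gene did not pass the filter of an alternative, 24 of the 48 with a mean normalized count above 100 and 9 with the compared libraries alone. Depth limits the members with under about 10 counts per library, and which of them are called moved with the settings. With a mean normalized count above 100 required, fewer members could be tested and those called higher were 2 for *E1*, 3 for *E1 S1S2*, 4 for *6KO1*, 4 for *E1E2 G9Gl* and 3 for *6KO2*, and in the steps 0 in *E1E2* versus *E2*, 1 in *E1 S1S2* versus *E1*, 2 in *6KO1* versus *E1 S1S2*, 2 in *E1E2 G9Gl* versus *E1E2*, 1 in *6KO2* versus *E1E2 G9Gl* and 3 in *6KO1* versus *6KO2*. Under this filter 4 members differed in the interaction for *Suv39h1* and *Suv39h2*. For *E1E2* versus *E2* the count was 2 with DESeq2, 2 with no filter, 2 with unadjusted p and 0 with the compared libraries alone. With no fold minimum, 4 members were higher in *E1 S1S2* than in *E1*. The cause of these shifts was not tested, apart from the fewer genes kept by the stricter filter.

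When each library was left out in turn, members called higher against WT numbered 3 to 4 for *E1*, 5 to 7 for *E1 S1S2*, 13 to 16 for *6KO1*, 5 to 5 for *E2*, 5 to 6 for *E1E2*, 9 to 10 for *E1E2 G9Gl* and 6 to 7 for *6KO2*. In the steps they numbered 0 to 1 in *E1E2* versus *E2*, 2 to 2 in *E1 S1S2* versus *E1*, 7 to 10 in *6KO1* versus *E1 S1S2*, 7 to 8 in *E1E2 G9Gl* versus *E1E2*, 3 to 4 in *6KO2* versus *E1E2 G9Gl* and 7 to 8 in *6KO1* versus *6KO2*, and in the interactions 8 to 10 and 3 to 4. Replicate numbers did not pair the cultures, since in 0 comparisons did every pair of same-numbered libraries correlate above 0.1 (lowest -0.242, highest 0.197). With the replicate block, the count of members called was 14 higher in *6KO1* and 10 in *E1E2 G9Gl*, and *Meiob* missed the threshold in *E1 S1S2* (adjusted p = 0.0103) and *6KO2* (0.0102).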

Other observations

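Of 17 genes of late sperm development, 3 passed the filter, and each was called in another set of conditions. Those called higher were 2 (11.8% of the list) for *6KO1*, 1 (5.88%) for *E1E2 G9Gl* and 1 (5.88%) for *6KO2*. Of all genes tested, 20.6%, 16.8% and 15.3% were called higher. The list shares also count genes that were not tested, so the 2 kinds of share cannot be compared directly. *Izumo1*, the sperm protein that binds the egg, had 53 counts over the *6KO1* libraries, 51 over those of *E1E2 G9Gl* and 2 over those of WT, and was called higher in both (adjusted p = 4.77e-06 and 1.7e-06, edgeR). *Gapdhs*, the sperm form of a glycolytic enzyme, had 56 counts in *6KO1*, 0 in *E1E2 G9Gl* and 2 in WT (adjusted p = 1.52e-05 in *6KO1*). *Pgk2*, another such sperm enzyme, had 46 counts over the *6KO2* libraries, 6 over those of *6KO1* and 0 in WT (adjusted p = 2.03e-05 in *6KO2*).

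Without a filter on low counts, 4 members outside the test were called against WT. *Syce3*, of the central element, was higher in *6KO1* (adjusted p = 0.00695) and *E1E2 G9Gl* (0.00108), *Ddx4* was higher in *6KO1* (0.000394), *Meioc* was higher in *6KO2* (0.00479), and *Sycp2* was lower in *E1E2 G9Gl* (0.00651) and *6KO2* (0.00555), where it had no counts. None of these exceeded 12 counts in a library.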
